A study of Mus musculus with 24 samples.

Results

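The homeostatic microglia genes were followed one by one rather than as a score: P2ry12, P2ry13, Tmem119, Cx3cr1, Csf1r, Sall1, Siglech, Gpr34 and Olfml3, the genes most often used to mark microglia at rest in the mouse brain. They were chosen by symbol, and all 9 of 9 were listed in each of the 4 deposited tables, out of 14769 gene symbols listed in any table. The libraries were made from ribosome-depleted total RNA of cortex from male mice aged 3 to 4 months, after 1 h of transient middle cerebral artery occlusion (tMCAo, a filament model of ischemic stroke) and 1 day of reperfusion. There were 24 libraries in 4 groups of 6, named here as the labels name them: wild-type mice gave CL WT and PI WT, and CL KO and PI KO came from mice of the strain C57BL/6N-Cdr1asem1Nikr that lack the circular RNA ciRS-7 (Cdr1as). CL and PI are 2 kinds of cortex sample, and the titles give a CL and a PI library of one number the same animal. All 4 groups had gone through the occlusion, so no group was from an animal without surgery. The deletion was not limited to one cell type by anything in the labels, so a KO value was not one of microglia alone.

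Microglia are the resident macrophages of the brain, and at rest they survey the tissue with fine processes. Their resting programme is kept up by signals from neighbouring cells, among them the ligands of Csf1r and transforming growth factor beta, and by transcription factors such as Sall1. After injury microglia are known to lower part of this programme and to switch on genes of an inflammatory or phagocytic state. In whole cortex RNA, fewer cells of a type and less RNA per cell cannot be told apart, and this holds for each value below.

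In GRCm38 (GENCODE M21), P2ry12 (chromosome 3, 59216272 to 59262871, minus strand) and P2ry13 (chromosome 3, 59207892 to 59210882, minus strand) are neighbours that both lie inside Med12l on the opposite strand. Olfml3 is on the same chromosome (103722222 to 103738001, minus strand). Tmem119 is on chromosome 5 (113793729 to 113800516, minus strand), Siglech on chromosome 7 (55768178 to 55778925, plus strand), Sall1 on chromosome 8 (89027235 to 89044162, minus strand), Cx3cr1 on chromosome 9 (119901616 to 120069879, minus strand), and Gpr34 on chromosome X (13632089 to 13640858, plus strand), inside Cask on the opposite strand. All are protein-coding genes.

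RefSeq promoter sequences (GRCm38.p6, from 250 bases before the gene's start) were used for 6 of the 9 members, and 4 are shown. P2ry12 and P2ry13 are shown because these neighbours differed in their values, and Siglech and Olfml3 because their change between PI and CL in WT ran in opposite directions. Each line gives the gene, and then the sequence from 5′ to 3′ on the gene's own strand. The windows are chr3:59263019-59263048 for P2ry12 (30 bases that lie in an annotated exon of Med12l), chr3:59210883-59211132 for P2ry13, chr7:55767934-55768153 for Siglech and chr3:103738002-103738251 for Olfml3. Only Siglech is on the plus strand.
P2ry12: agctaacaagaaGGAAGTtccccagtgaca
P2ry13: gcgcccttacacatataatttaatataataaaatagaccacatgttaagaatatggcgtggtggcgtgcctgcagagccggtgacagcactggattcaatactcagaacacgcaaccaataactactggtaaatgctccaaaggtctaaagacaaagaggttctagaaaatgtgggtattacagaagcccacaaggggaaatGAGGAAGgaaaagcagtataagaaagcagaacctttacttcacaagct
Siglech: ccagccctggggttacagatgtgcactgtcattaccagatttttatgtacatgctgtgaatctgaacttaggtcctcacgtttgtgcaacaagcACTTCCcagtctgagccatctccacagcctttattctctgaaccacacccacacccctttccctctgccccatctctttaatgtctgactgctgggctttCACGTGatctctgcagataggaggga
Olfml3: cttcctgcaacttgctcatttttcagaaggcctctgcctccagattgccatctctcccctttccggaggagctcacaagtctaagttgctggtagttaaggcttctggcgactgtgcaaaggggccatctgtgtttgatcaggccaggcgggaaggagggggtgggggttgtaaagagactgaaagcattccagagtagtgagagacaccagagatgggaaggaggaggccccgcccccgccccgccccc
Capitals mark any match, on either strand, to 7 motifs that were chosen after the sequences had been seen: GAGGAA and its extension GAGGAAG and the related GGAAGT and the union GAGGAAGT (which overlap each other and resemble the core bound by the myeloid factor PU.1), then TGACTCA (AP-1), CACGTG (the E-box) and GATAAG (of the GATA factors). Over all 32851 promoters of 250 bases, the shares with a match were 23.3% for GAGGAA, 10.6% for GAGGAAG, 19.7% for GGAAGT, 2.44% for GAGGAAGT, 4.46% for TGACTCA, 6.02% for CACGTG and 6.55% for GATAAG. P2ry12 held GGAAGT 51 bases before its start and CACGTG 228 bases before it, outside the stretch shown. P2ry13 held GAGGAA, within GAGGAAG, 48 bases before its start. Siglech held GGAAGT on the minus strand 156 bases before its start and CACGTG 56 bases before it. Olfml3 held none of the 7 in its window. These are matches of letters and not sites of binding.

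Values are log2 CPM, the log2 of a gene's read count scaled to a common library total. The effective depth was 3.76 to 10.5 M reads (megareads) per library, with a median of 6.92, and both ends were CL KO libraries, replicate 6 the shallowest and replicate 5 the deepest; these depths are estimates, and that of replicate 6 depended on how the estimate was made. For the members this came to a median of 30.3 reads per library for Tmem119, the fewest, and 256 for Csf1r, the most. In every gene and group the 2 lowest values were tied and the 2 highest were tied, because the deposited values are Winsorized: each group's outer values were replaced by its quartiles. A lowest or highest value below is therefore a drawn-in one, and groups of such values overlap less often than measured values would. The targeted gene set the genotypes apart: Cdr1as was between 11.32 and 11.93 log2 CPM in the WT libraries of the table of PI WT and CL WT, while its highest value was -4.06 in CL KO and -2.59 in PI KO. Markers of cortical neurons were all found (10 of 10), with summed levels of 7463 to 9395 CPM over the tables of PI and CL, against 104 to 138 CPM for the 9 members together.

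Per length of annotated exon, the members spanned about an order of magnitude in CL WT. P2ry12 was highest, with a lowest, median and highest value of 7.84, 8.59 and 9.53 CPM per kb, and Csf1r followed with 5.66, 6.26 and 6.31. Gpr34 stood at 4.44, 4.69 and 4.96 CPM per kb. Then came Cx3cr1 (median 2.77 CPM per kb), P2ry13 (2.55), Siglech (2.43), Sall1 (2.003) and Tmem119 (1.82), in which each gene's range overlapped that of its neighbour in the order. Olfml3 was lowest, between 0.664 and 0.858 CPM per kb. In PI WT the order differed: Csf1r was first (6.16 to 6.42 CPM per kb), P2ry12 and Cx3cr1 followed with overlapping ranges (3.85 to 5.99 and 3.70 to 4.93), and Siglech (1.03 to 1.43) and Olfml3 (1.22 to 1.40) overlapped at the low end. In PI KO the ranges of P2ry12 (5.55 to 6.29 CPM per kb) and Csf1r (6.31 to 7.65) did not overlap.

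**Figure D1:**
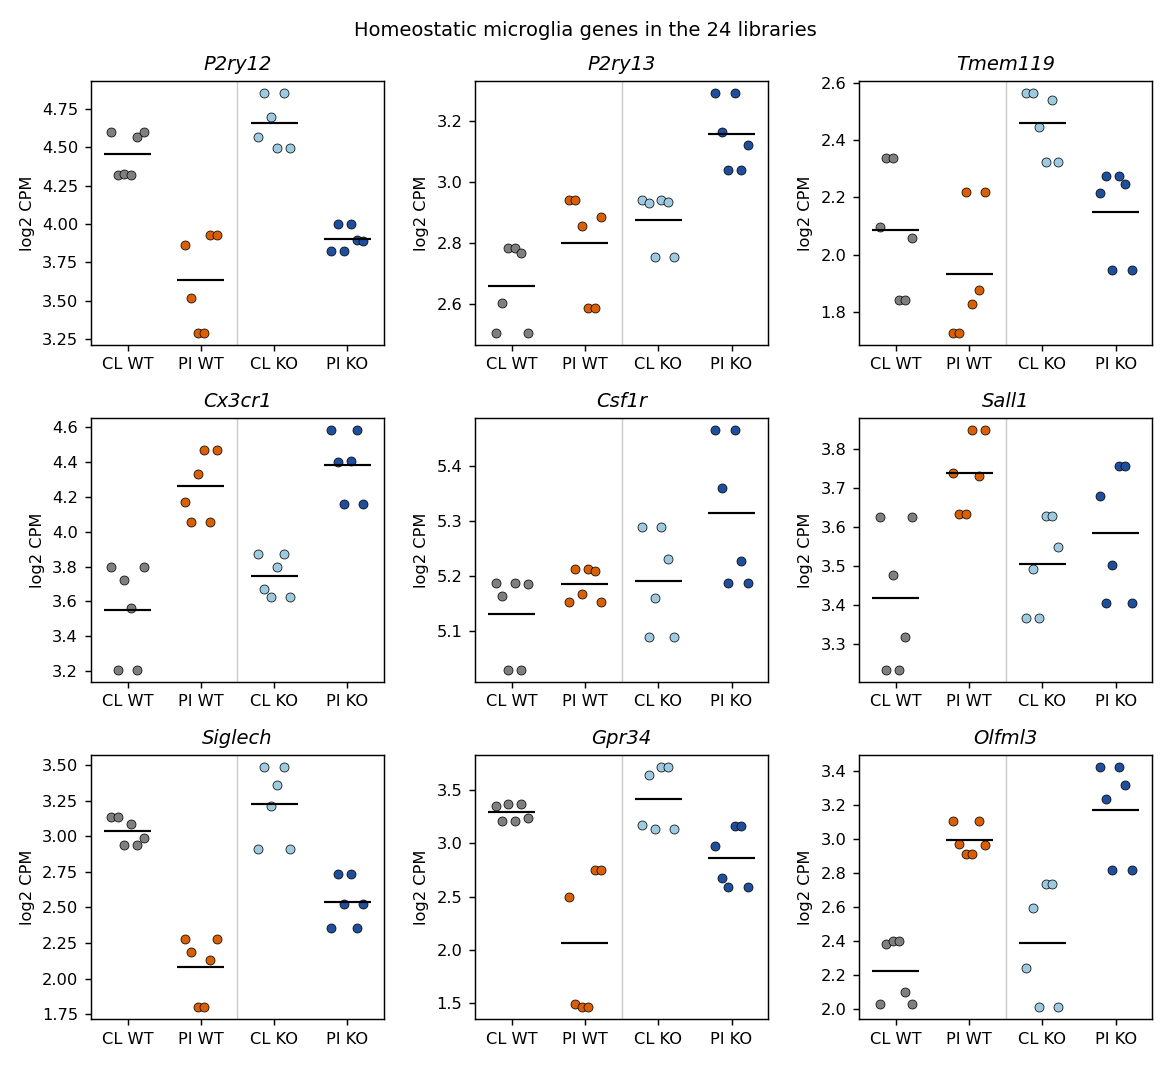
Level of each of the 9 genes in log2 CPM (vertical axis, a scale of its own per gene) in the 6 libraries of each group; points are libraries and bars are group means, and the grey line parts 2 tables that were scaled separately. P2ry12, Siglech and Gpr34 sit lower in PI than in CL in both genotypes, apart from an overlap of Gpr34 in KO, and Cx3cr1 and Olfml3 sit higher.

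Setting PI against CL inside each genotype showed how each gene differed between the cortex samples of the same animals. In WT the 9 genes did not move as a block: P2ry12, Siglech and Gpr34 fell, Cx3cr1 and Olfml3 rose, and P2ry13, Tmem119, Csf1r and Sall1 did not pass the test. That made 5 of 9 members called at an adjusted p under 0.05 by a moderated trimmed-mean test (limma's variance moderation, Benjamini-Hochberg over the table), where 10.6% of all 14489 genes were called (5.2% higher and 5.4% lower). The median log2 change of the members was 0.05, next to 0.01 over all genes. In KO, P2ry12 fell and Cx3cr1 rose, 2 of 9 members, where 10% of 14338 genes were called (5.11% higher and 4.94% lower). By unadjusted p under 0.05 the members counted 6 of 9 in WT, where 23.9% of all genes did, and 5 of 9 in KO, where 24.9% did. All 9 members had the same sign of change in KO as in WT. An interaction test of the change in KO against that in WT called none of the 9 and none of the 14211 genes in both tables (0%), and 0 of the 9 but 646 of all genes (4.55%) had an unadjusted p under 0.05.

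These counts rest on the test. Limma on the drawn-in values as deposited, whose spread is understated, called 6 members in WT and 7 in KO, against 44.6% and 46.5% of all genes, and with the animal as a replicate block it called 6 and 8, against 45.6% and 47.1%. For the interaction it called 0 members with and without the block, against 15.6% and 13.7% of all genes. A prior variance without a trend on the mean level left 2 members in WT and 1 in KO. The drawn-in values of PI and CL did not overlap for 6 of 9 members in WT and 6 of 9 in KO, where 32.8% and 34.3% of all genes did not overlap. Where they did not overlap, every animal went the same way by necessity, so a count of 6 of 6 animals below adds nothing there. Those counts also use the drawn-in values, which replace some animals' own values.

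Among the purinergic receptors, P2ry12, a receptor for ADP that guides microglial processes to sites of damage, was lower in PI in both genotypes. In WT its lowest, median and highest values were 3.29, 3.69 and 3.93 log2 CPM in PI and 4.32, 4.45 and 4.60 in CL. The 6 PI libraries all lay below the 6 CL libraries, so the gene was lower in PI in 6 of 6 animals. The log2 change was -0.82 (SE 0.19, 95% interval -1.22 to -0.41, adjusted p = 0.0139), 0.568 times the CL level. Without a trend in the prior variance that call was lost (adjusted p = 0.0646). In KO the values were 3.82, 3.89 and 4.00 log2 CPM in PI and 4.49, 4.63 and 4.85 in CL, again with no overlap and lower in 6 of 6 animals. The change there was -0.75 (SE 0.13, adjusted p = 0.00303), and the interaction was 0.06 (95% interval -0.45 to 0.58).

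P2ry13, a second ADP receptor whose gene lies next to P2ry12, did not pass the test in either genotype. In WT it lay at 2.59, 2.87 and 2.94 log2 CPM in PI and 2.51, 2.69 and 2.78 in CL, ranges that overlapped. This was a log2 change of 0.14 (95% interval -0.21 to 0.50, adjusted p = 0.668), higher in 4 of 6 animals. In KO the PI values (3.04 to 3.29 log2 CPM) all lay above the CL values (2.76 to 2.94), and the change was 0.28 (95% interval -0.02 to 0.59, adjusted p = 0.239). Limma on the deposited values called it in KO (adjusted p = 0.00276). The other genes of the locus that could be tested were Med12l, Igsf10 and P2ry14. Med12l, which contains both receptor genes, changed by -0.12 in WT (adjusted p = 0.326) and -0.20 in KO (adjusted p = 0.128). Igsf10 rose in WT by 0.81 (SE 0.14, adjusted p = 0.00271) and its log2 change in KO was 0.57 (adjusted p = 0.163). P2ry14, a receptor for UDP-glucose, changed by -0.58 in WT (adjusted p = 0.376) and 0.43 in KO (adjusted p = 0.346), near a level of 1 log2 CPM.

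Gpr34, a receptor for lysophosphatidylserine, fell in PI in WT, with a larger error there than any other member. In PI WT its values were 1.47, 1.996 and 2.75 log2 CPM, and in CL WT 3.21, 3.29 and 3.38. All PI WT libraries lay below all CL WT libraries, but PI WT replicates 2, 3 and 4 stood at 1.47 to 1.49 and replicates 1, 5 and 6 at 2.50 to 2.75. The log2 change was -1.22 (SE 0.33, 95% interval -1.94 to -0.51, adjusted p = 0.0324), lower in 6 of 6 animals. The call did not hold without a trend in the prior variance (adjusted p = 0.108). It was also lost when any of the 6 CL WT libraries or PI WT replicate 2, 3 or 4 was left out, with changes of -1.25 to -1.02 and adjusted p between 0.0635 and 0.0936. In KO the values were 2.59, 2.83 and 3.16 log2 CPM in PI and 3.13, 3.40 and 3.72 in CL, which overlapped, although PI was lower in 6 of 6 animals. The log2 change there was -0.56 (SE 0.22, unadjusted p = 0.0275, adjusted p = 0.141), and limma on the deposited values called it (adjusted p = 0.00520). The interaction was 0.67 (95% interval -0.25 to 1.59, adjusted p = 0.992).

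Siglech, a receptor of the Siglec family found on microglia, fell in PI in WT. In WT its values were 1.80, 2.16 and 2.28 log2 CPM in PI and 2.94, 3.04 and 3.13 in CL. The groups lay well apart, and PI was lower in 6 of 6 animals. This was a log2 change of -0.96 (SE 0.18, 95% interval -1.35 to -0.56, adjusted p = 0.00492), 0.515 times the CL level. In KO the values were 2.35, 2.52 and 2.74 log2 CPM in PI and 2.91, 3.29 and 3.48 in CL, also without overlap and lower in 6 of 6 animals. The log2 change in KO was -0.69 (SE 0.21, unadjusted p = 0.00655, adjusted p = 0.0586). It passed when the groups were centred on the median gene (-0.73, adjusted p = 0.0454), under limma on the deposited values (adjusted p = 0.000205), and without PI KO replicate 4 (-0.78, adjusted p = 0.0420), CL KO replicate 1 (-0.83, adjusted p = 0.0189) or CL KO replicate 6 (-0.83, adjusted p = 0.0162). The interaction was 0.27 (95% interval -0.35 to 0.88).

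Cx3cr1, the receptor for the neuronal chemokine fractalkine, was higher in PI in both genotypes. In WT its values were 4.06, 4.25 and 4.47 log2 CPM in PI and 3.21, 3.64 and 3.80 in CL, with every PI library above every CL library. The log2 change was 0.71 (SE 0.20, 95% interval 0.28 to 1.15, adjusted p = 0.0387), 1.64 times the CL level, higher in 6 of 6 animals. In KO the values were 4.16, 4.40 and 4.58 log2 CPM in PI and 3.63, 3.73 and 3.87 in CL, again without overlap and in 6 of 6 animals. The change in KO was 0.64 (SE 0.15, adjusted p = 0.0194). These calls did not hold under another prior or with some single libraries left out. Leaving out a library also leaves only 3 inner values in its group. In WT the change was larger, not smaller, without PI WT replicate 1 (0.74) or CL WT replicate 3 (0.77), although the call was lost. Without a trend in the prior variance the adjusted p was 0.119 in WT and 0.0675 in KO. In WT the call was lost without PI WT replicate 1, 3, 4 or 6 or CL WT replicate 3, 4 or 5 (changes of 0.56 to 0.77, adjusted p between 0.0504 and 0.0963). In KO it was lost without PI KO replicate 2, CL KO replicate 2 or CL KO replicate 3 (changes of 0.59 to 0.63, adjusted p between 0.0523 and 0.0555).

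Csf1r (chromosome 18), the receptor whose signalling keeps microglia alive, had the smallest change of the members in WT. Its values were 5.15, 5.19 and 5.21 log2 CPM in PI WT and 5.03, 5.18 and 5.19 in CL WT. This was a log2 change of 0.05 (95% interval -0.11 to 0.22, adjusted p = 0.735), an interval that did not reach the size of the changes of P2ry12, Siglech or Cx3cr1. In KO the values were 5.19, 5.29 and 5.46 log2 CPM in PI and 5.09, 5.20 and 5.29 in CL, with a change of 0.12 (95% interval -0.10 to 0.35, adjusted p = 0.518). With the animal as a replicate block on the deposited values, Csf1r passed in KO (adjusted p = 0.0328). Its exons share 873 bases (15.1% of their length) with Hmgxb3 on the opposite strand, and Hmgxb3 changed by -0.02 in WT (adjusted p = 0.931) and -0.08 in KO (adjusted p = 0.552).

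Sall1, a transcription factor that maintains microglial identity, lay at 3.63, 3.73 and 3.85 log2 CPM in PI WT and at 3.23, 3.40 and 3.63 in CL WT. The drawn-in ranges did not overlap by a narrow margin, and PI was higher in 6 of 6 animals. The log2 change was 0.32 (95% interval 0.01 to 0.63, unadjusted p = 0.0421, adjusted p = 0.189), which did not pass, while limma on the deposited values called it (adjusted p = 0.00370). In KO the ranges overlapped and the change was 0.08 (95% interval -0.23 to 0.39, adjusted p = 0.791), higher in 4 of 6 animals. Sall1 is also expressed by other neural cells in some settings, and its cell of origin was not tested.

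Tmem119, a membrane protein used as a marker of resident microglia, had the fewest reads and wide intervals. In WT its values were 1.73, 1.85 and 2.22 log2 CPM in PI and 1.84, 2.08 and 2.34 in CL, with a change of -0.15 (95% interval -0.66 to 0.36, adjusted p = 0.762). In KO they were 1.95, 2.23 and 2.28 in PI and 2.32, 2.49 and 2.56 in CL. The KO ranges did not overlap and PI was lower in 6 of 6 animals, but the log2 change of -0.31 (95% interval -0.70 to 0.08, adjusted p = 0.321) did not pass. Limma on the deposited values called it in KO (adjusted p = 0.00849).

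Olfml3, a secreted protein of the extracellular matrix, rose in PI in WT. There its values were 2.91, 2.97 and 3.11 log2 CPM in PI and 2.03, 2.24 and 2.40 in CL, with no overlap and higher in 6 of 6 animals. This was a log2 change of 0.77 (SE 0.16, 95% interval 0.43 to 1.11, adjusted p = 0.00733), 1.71 times the CL level. In KO the values were 2.82, 3.28 and 3.42 log2 CPM in PI and 2.01, 2.42 and 2.74 in CL, also without overlap and in 6 of 6 animals. The change was of like size, 0.78, but with a larger error (SE 0.27, unadjusted p = 0.0118, adjusted p = 0.0840). It passed without PI KO replicate 3 (0.95, adjusted p = 0.0404) or PI KO replicate 6 (0.95, adjusted p = 0.0324), and under limma on the deposited values (adjusted p = 0.000863).

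**Figure D2:**
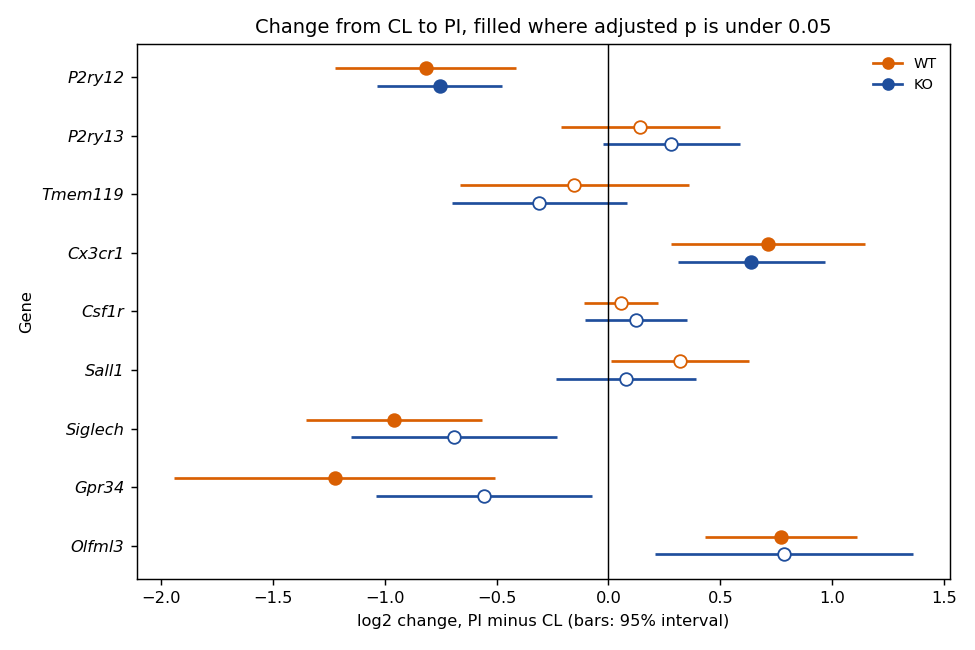
Log2 change of each gene from CL to PI (horizontal axis) with its 95% interval, in WT and KO; filled points passed an adjusted p of 0.05. The intervals of P2ry12, Siglech and Gpr34 lie below 0 and those of Cx3cr1 and Olfml3 above 0 in both genotypes, while that of Csf1r in WT spans -0.11 to 0.22.

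Other genes that mark microglia and macrophages ran mainly one way. Of 28 other microglia identity genes tested in WT, 16 were called higher in PI and none lower (median log2 change 0.67). In KO 15 of 27 were called higher and none lower (median 0.74). Over all genes, 10.6% in WT and 10% in KO were called. A change below 0 that was not called was found for 4 in WT and 7 in KO. By unadjusted p, 21 of the 28 and 17 of the 27 were under 0.05, where 23.9% and 24.9% of all genes were. Fcrls, an Fc receptor-like gene of microglia, rose by 1.79 in WT (SE 0.21, adjusted p = 0.000259) and 1.82 in KO (SE 0.17, adjusted p = 4.13e-05). Itgam, which codes for CD11b, rose by 1.08 and 0.95 (adjusted p = 0.000108 and 0.00212). C1qb, a chain of the complement protein C1q, rose by 0.87 and 1.01 (adjusted p = 0.000150 and 0.000201). The counts called without 1 library were 13 to 16 in WT and 10 to 14 in KO. Limma on the deposited values called 22 higher and 4 lower in WT, where it called 44.6% of all genes.

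The genes of activated microglia that were tested had larger median changes. Of 16 tested in WT, 12 were called higher and 1 lower (median log2 change 1.59), where 10.6% of all genes were called. In KO 10 of 15 were called higher and 1 lower (median 1.46), where 10% were called. Of the 24 genes on this list, 19 were tested between genotypes within PI but only 8 within CL. A gene listed only where PI was included could hardly fall, so these counts and medians are partly set by which genes were listed. Ccl12, a chemokine, rose by 5.25 in WT (SE 0.55, adjusted p = 0.000113) and 4.58 in KO (SE 0.42, adjusted p = 4.57e-05), and the scavenger receptor Msr1 rose by 5.07 (adjusted p = 0.00254) and 4.85 (adjusted p = 1.46e-06). The member that fell was Apoe, by 0.50 in WT (adjusted p = 0.00263) and by 0.30 in KO (adjusted p = 0.0173); Apoe is also made by astrocytes. Its call in KO was lost without a trend in the prior variance (adjusted p = 0.0836) and without CL KO replicate 2, 4 or 5 (adjusted p between 0.0516 and 0.0581). In KO the activated genes called dropped from 11 to 6 without a trend in the prior variance and to 7 without CL KO replicate 4.

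Markers of other blood-borne or border cells were read beside the members, since several of them share receptors with microglia. Of 11 border macrophage markers, 5 were tested, and F13a1, Lyve1 and Mrc1 rose in both genotypes, Mrc1 (the mannose receptor) by 0.51 in WT (adjusted p = 0.0337) and 0.54 in KO (adjusted p = 0.0427). Leaving out 1 of the 12 libraries ended the call of Mrc1 for 10 of them in WT and 10 in KO, and that of Lyve1 for 8 and 7. Their summed level was 31.1 to 36.9 CPM in PI WT against 20.004 to 22.4 in CL WT, and 30.9 to 38.2 in PI KO against 21.1 to 23.7 in CL KO. The part of these cells in the rise of Cx3cr1, which they can also express, was not tested. Of 13 neutrophil markers only Csf3r was among the genes tested, at a summed level of 1.3 to 1.7 CPM in the WT libraries, and it did not pass (adjusted p = 0.953 in WT and 0.562 in KO). None of the 9 monocyte markers was among the genes tested, so monocytes are not analysed here. Neuron markers fell in part (3 of 10 called lower in each genotype, and Gad2 called higher in KO), where 5.4% and 4.94% of all genes were called lower. Of 8 astrocyte markers, Gfap and Aqp4 rose in both genotypes, Gfap by 1.88 and 2.19 (adjusted p = 1.87e-06 and 8.47e-06), while 3 fell in WT and 1 fell in KO. The median log2 change of the astrocyte list was -0.14 in WT and -0.07 in KO, and its summed level was 6761 to 7192 CPM in PI WT against 7592 to 8001 in CL WT, and 6662 to 7271 in PI KO against 7604 to 8100 in CL KO. Without a trend in the prior variance the calls of Mrc1 and Aqp4 in both genotypes, Lyve1 in WT and Gad2 in KO were lost (adjusted p between 0.0505 and 0.0887). The falls of the neuron markers Snap25 and Syt1 lost their calls there too, in both genotypes (adjusted p between 0.0675 and 0.124). So did the 3 astrocyte markers that fell in WT, Gja1, Gjb6 and Slc1a2 (adjusted p between 0.0633 and 0.120). With 1 of the 12 libraries left out, the call of Syt1 ended for 10 in WT and 6 in KO, and in WT that of Gjb6 for 8. The part of these cell types in the members' values was not tested.

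**Figure D3:**
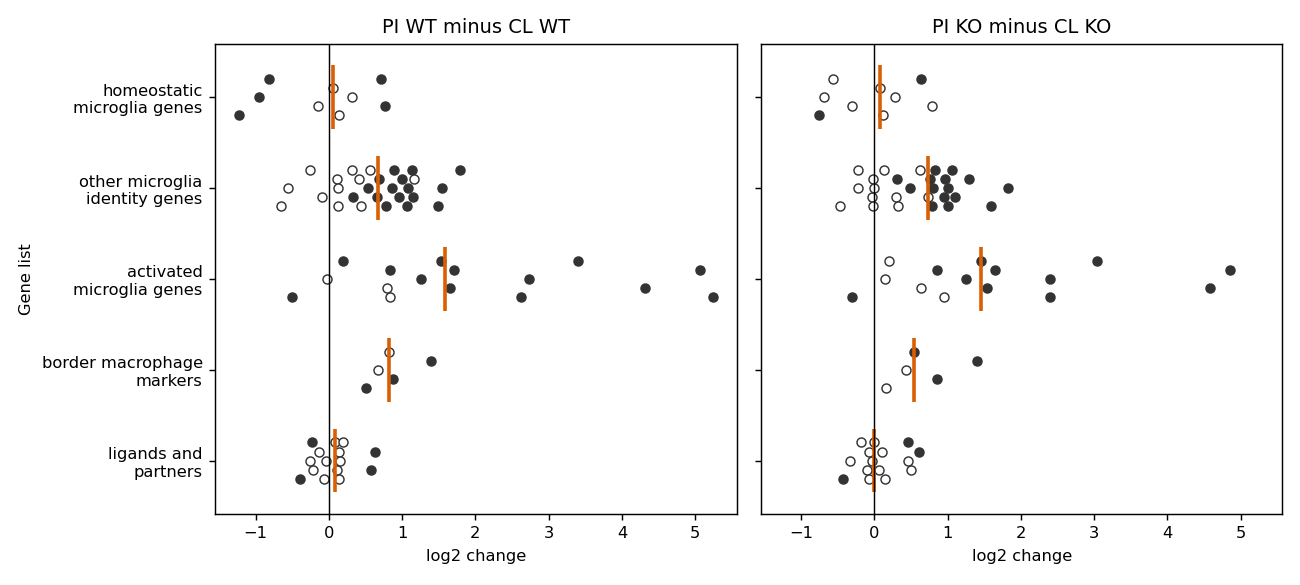
Log2 change from CL to PI (horizontal axis) of the genes of 5 lists, in WT and in KO; each point is a gene, filled where it passed an adjusted p of 0.05, and the orange line is the list's median. The medians of the 9 homeostatic genes are 0.05 and 0.08, those of the other microglia identity genes 0.67 and 0.74.

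Of the ligands and signalling partners of the members, 15 were tested between PI and CL in each genotype. In WT 2 were called higher and 2 lower, and in KO 2 higher and 1 lower, where 10.6% and 10% of all genes were called. An unadjusted p under 0.05 was found for 7 in WT and 5 in KO, where 23.9% and 24.9% of all genes had one. Their summed level was 935 to 1005 CPM in PI WT against 1026 to 1085 in CL WT, and 976 to 1007 in PI KO against 1016 to 1077 in CL KO. Csf1, a ligand of Csf1r, rose by 0.58 in WT (SE 0.12, adjusted p = 0.00981) and 0.62 in KO (SE 0.13, adjusted p = 0.0101), while Il34, the other ligand, changed by -0.04 (adjusted p = 0.868) and -0.07 (adjusted p = 0.871). Cx3cl1, the ligand of Cx3cr1, fell by 0.40 in WT (SE 0.08, adjusted p = 0.00548) and by 0.43 in KO (SE 0.06, adjusted p = 0.000590), opposite in sign to its receptor. Adam10, a protease that sheds fractalkine, changed by 0.11 and 0.10 (adjusted p = 0.295 and 0.277).

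On the side of transforming growth factor beta, Tgfbr2, a receptor subunit, rose by 0.64 in WT (SE 0.09, adjusted p = 0.000935) and 0.46 in KO (SE 0.13, adjusted p = 0.0405), a call in KO that 8 of the 12 libraries, left out singly, ended. Itgb8, an integrin chain that releases the active ligand, fell by 0.23 in WT (adjusted p = 0.0408), a call that 9 of the 12 libraries, left out singly, ended, and changed by -0.07 in KO (adjusted p = 0.703). Without a trend in the prior variance both calls were lost (adjusted p = 0.0950 for Tgfbr2 in KO and 0.121 for Itgb8 in WT). Tgfbr1, Smad3, Itgav and Nrros did not pass in either genotype, with log2 changes between -0.21 and 0.20. For the purinergic members, the enzymes Entpd1 and Nt5e, which break down extracellular nucleotides, did not pass. Neither did the G protein subunit Gnai2, the potassium channel Kcnk13 or Abhd16a, which makes lysophosphatidylserine. Entpd1 came closest, with -0.33 in KO (adjusted p = 0.0632).

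Setting KO against WT in each kind of sample asked whether these genes depended on the genotype. No member passed in either kind of sample. Within PI, 8 of 9 members were higher in KO and Sall1 was lower, with a median log2 change of 0.22 next to -0.0049 over all genes, and 0 were called, where 0.0208% of 14452 genes were called. The unadjusted p was under 0.05 for 1 member, where 5.75% of all genes were. Within CL, all 9 were higher in KO, by 0.07 (Csf1r) to 0.38 (Tmem119), with a median of 0.20 next to -0.0020 over all genes, and 0 were called, where 0.0279% of 14323 genes were called. No member had an unadjusted p under 0.05 there, where 5.73% of all genes did. The 2 comparisons use different libraries of the same animals. In the other microglia and myeloid lists 0 genes were called as well. Within PI, 23 of 28 other microglia identity genes were higher in KO (median log2 change 0.16, 7 with an unadjusted p under 0.05). So were 16 of 19 activated microglia genes (median 0.23, 2 under 0.05) and 2 of 5 border macrophage markers. The 3 neutrophil markers tested were higher as well (median 0.77, 1 under 0.05). These were 3 of 13 on that list, of which each other comparison held only 1, and their level was low. Summed, it was 5.21 to 11.3 CPM in PI KO and 3.79 to 5.75 in PI WT. Within CL, 21 of 26 other microglia identity genes were higher in KO (median 0.13, 3 under 0.05), as were 5 of 8 activated microglia genes (median 0.02, 1 under 0.05), 3 of 4 border macrophage markers and the 1 neutrophil marker tested.

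Within PI, the largest difference was in Gpr34, which lay at 2.62, 2.86 and 3.19 log2 CPM in PI KO and 1.48, 2.02 and 2.78 in PI WT. The ranges overlapped, because 3 of the PI WT libraries stood low and 3 near the KO values. The log2 change was 0.80 (SE 0.37, 95% interval 0.00 to 1.60, unadjusted p = 0.0510, adjusted p = 0.854). Siglech was at 2.39, 2.56 and 2.77 log2 CPM in PI KO and 1.82, 2.18 and 2.31 in PI WT, ranges that did not overlap, with a change of 0.47 (SE 0.22, unadjusted p = 0.0519, adjusted p = 0.854). P2ry13 was at 3.07, 3.18 and 3.33 in PI KO and 2.61, 2.90 and 2.97 in PI WT, also without overlap, with a change of 0.36 (SE 0.16, unadjusted p = 0.0438, adjusted p = 0.854). These 2 members were the ones without overlap, where 14.1% of all genes had none. P2ry12 changed by 0.27 (95% interval -0.13 to 0.68), Tmem119 by 0.22 (95% interval -0.26 to 0.71), Olfml3 by 0.19 (95% interval -0.26 to 0.63), Csf1r by 0.14 (95% interval -0.07 to 0.35), Cx3cr1 by 0.13 (95% interval -0.24 to 0.50) and Sall1 by -0.15 (95% interval -0.45 to 0.15). Limma on the deposited values called Gpr34, Siglech and P2ry13 (adjusted p = 0.0412, 0.0117 and 0.00901), where it called 16.5% of all genes.

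Within CL, Tmem119 differed most, at 2.29, 2.47 and 2.54 log2 CPM in CL KO and 1.81, 2.05 and 2.31 in CL WT. The ranges overlapped slightly, and the log2 change was 0.38 (SE 0.20, 95% interval -0.05 to 0.80, unadjusted p = 0.0776, adjusted p = 0.878). P2ry13 changed by 0.22 (95% interval -0.09 to 0.54), P2ry12 by 0.21 (95% interval -0.07 to 0.50), Cx3cr1 by 0.20 (95% interval -0.20 to 0.61) and Siglech by 0.20 (95% interval -0.20 to 0.60). Olfml3, Gpr34, Sall1 and Csf1r changed by 0.17, 0.13, 0.09 and 0.07. The drawn-in ranges of all 9 members overlapped between CL KO and CL WT, where 13.5% of all genes had no overlap. Limma on the deposited values called Tmem119 and P2ry13 (adjusted p = 0.0195 and 0.0441), where it called 16.1% of all genes.

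**Figure D4:**
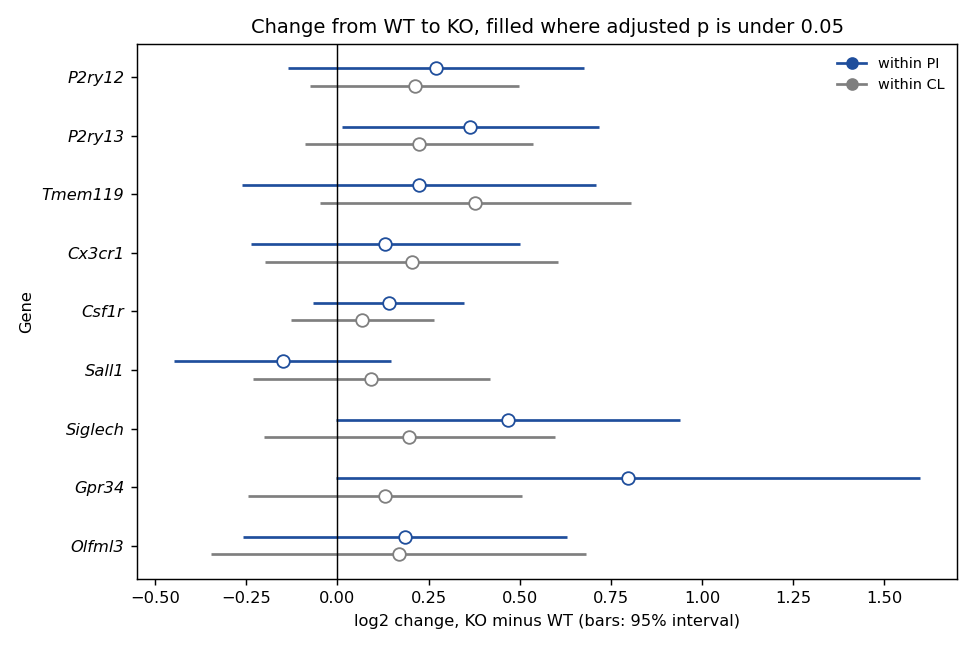
Log2 change of each gene from WT to KO (horizontal axis) with its 95% interval, within PI and within CL; filled points would mark an adjusted p under 0.05, and there are none. Most points lie above 0, and the widest interval is that of Gpr34 within PI.

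How the members varied between libraries of one group is given as a description. Over the 24 libraries of the tables of PI and CL, as deviations from group means, 31 of 36 pairs of members had a positive Pearson's r (86.1%, median 0.19, lowest -0.17), next to 50% of all pairs of the genes ranked (median 0). The highest were P2ry12 with Gpr34 (0.75), Cx3cr1 with Sall1 (0.68) and P2ry12 with Siglech (0.65). The points share library, animal and depth, and the drawn-in ties add to any r, so these are descriptions. All 9 members were below their group mean in PI KO replicates 3 and 6, and 8 of 9 were in CL KO replicates 3 and 6, which come from the same 2 animals by their numbers. All 9 were above it in PI KO replicate 4 and CL KO replicate 5. CL KO replicate 6 was the shallowest library and CL KO replicate 5 the deepest. The shallowest of PI KO were replicates 6 (5.40 M reads) and 3 (6.09 M reads). The part of depth in this was not tested, and the share of all genes below their group mean in these libraries was not counted. Without CL KO replicate 6, 3 members were called in KO, and without CL KO replicate 5, 2 were.

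**Figure D5:**
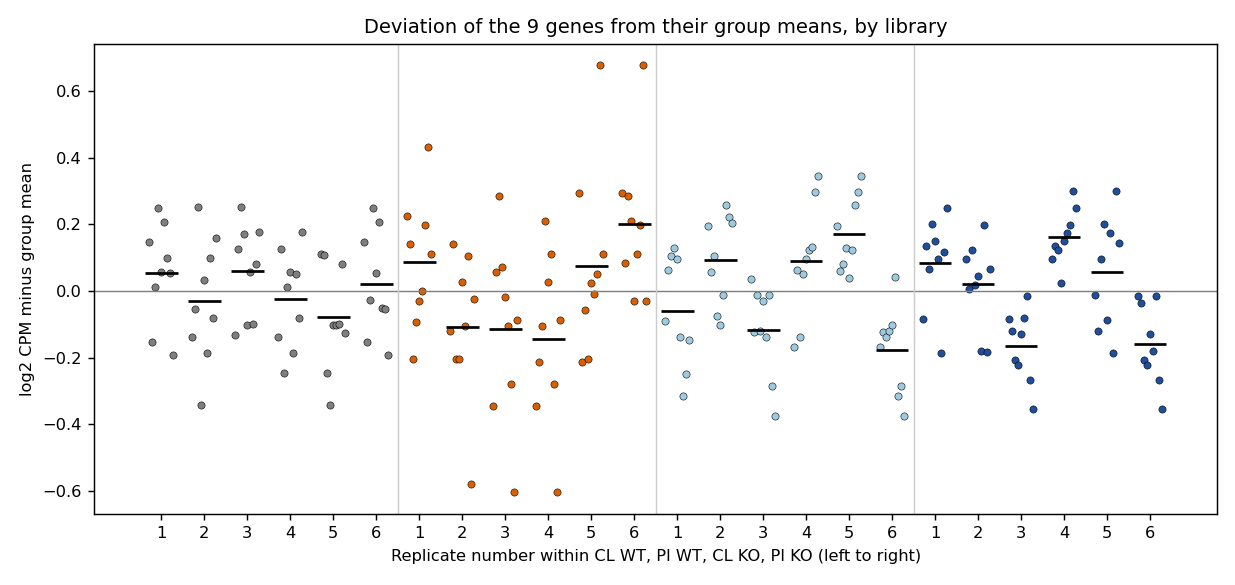
Deviation of the 9 genes from their group means in log2 CPM (vertical axis) in each of the 24 libraries (horizontal axis, replicates 1 to 6 of each group, CL before PI and WT before KO); points are genes and bars their mean. All points of PI KO replicates 3 and 6 lie below 0, and the lowest points in PI WT replicates 2, 3 and 4 are Gpr34.

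Across the 14193 genes ranked, those whose deviations were most like a member's had Pearson's r between 0.72 and 0.91 over the 24 libraries. For P2ry12 they were Car10, Lhfp and Zfp24, for P2ry13 Ninj1, Mettl15 and Aif1, and for Gpr34 Gm20634, Slc4a7 and Zfp24. For Siglech they were Sulf2, F3 and Fat3, for Cx3cr1 Gm38157, Mcf2l and Cep250, and for Csf1r Rlbp1, Ppp2r2c and Prkcz. Sall1 was nearest to Axin2, Pcdhgb6 and Gm37940, Tmem119 to Ranbp17, Pop1 and Rhebl1, and Olfml3 to Nt5c3b, Tubb4b and Hexa. Of these 27 places, 1 was held by a gene of the marker lists, Aif1, a calcium-binding protein of microglia and macrophages.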

How the data were processed

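The deposited values are log2 CPM in 4 tables, 1 per pair of groups, each scaled separately, per the file headers. The submitters' processing notes name mm10; the aligner, the counting and its use of strand are not given in the sources used here, so reads of a member and of a gene overlapping it on the other strand could not be told apart. In 100% of genes the authors' log2 values were Winsorized, the outer values of each group of 6 replaced by its quartiles, a step that no label records. From the ties the 4 inner values were recovered: at low levels 83.3% to 89.1% of recovered values were whole reads within 0.03 read, against 8.19% to 13.7% of the tied values as deposited. Depth was read from those steps; the estimate was revised several times, judged by the share of low values that came out whole, and CL KO replicate 6 came out shallower than in an earlier estimate. The lowest and highest value of each group were not recoverable.

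The test was a trimmed-mean (Yuen-type) comparison of the 4 inner values, with the Winsorized sum of squares as error, moderated with a trend by limma 3.58.1 in R 4.3.3, two-sided, with Benjamini-Hochberg adjustment over all genes of a table and calls at 0.05. It was tested on simulated data, where the share of false calls ran somewhat above the nominal rate. Fold changes are on the log2 scale and equal those of the deposited means. The interaction used genes that both side comparisons held. A CL and a PI library of one number come from 1 animal by their titles, so the block fits pair them. As a check, the correlation of same-numbered deviations ran from -0.14 to 0.33 in WT (median 0.27) and from -0.01 to 0.17 in KO (median 0.02). The own number gave the highest correlation for 4 of 6 PI libraries in WT and 2 of 6 in KO. Between genotypes, where numbers pair no animals, the median was 0.024 in PI and 0.024 in CL. In KO the pairing therefore rests on the titles. The recovery loses which animal a tied value came from, so the main test has no block. Replicate numbers do not pair WT with KO animals. Nothing in the labels says that animals were pooled.

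The 9 members, the gene lists and the tests were chosen with earlier results of these data known. Named beside the members were all ligands and partners, locus genes and genes overlapping a member that could be tested, and from other lists genes called or with the smallest p or the largest change. For each member the 3 genes with the highest correlation were named. Promoters are from RefSeq (GRCm38.p6) and positions from GENCODE M21, matched by symbol.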

Additional observations from a re-analysis of the deposited data

How the results depend on the processing

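Over all comparisons, 918 values of single members were recomputed under an alternative, and 845 kept their direction and their side of the threshold; 23 lost a call, 28 gained one and 22 turned direction. Only the 5 members called in WT and the 2 in KO between PI and CL could lose a call, so most values had none to lose. The 918 include block fits between genotypes, whose numbers do not pair animals. The 22 were all interaction values with 1 library left out, which ran from -0.0787 to 0.167 for P2ry12, -0.166 to 0.0794 for Cx3cr1 and -0.137 to 0.178 for Olfml3, none called.

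The number of members called moved as follows. Without a trend in the prior variance it was 2 between PI WT and CL WT and 1 between PI KO and CL KO. With 1 library left out, which leaves 3 inner values, it ran from 3 to 5 in WT and from 1 to 3 in KO, and it stayed at 0 between genotypes. Limma on the deposited values called 7 in KO, 3 between PI KO and PI WT and 2 between CL KO and CL WT. With a replicate block it called 8 in KO, and 6 in WT both with and without the block. Between genotypes the numbers do not pair animals (in each comparison 0 of 6 libraries correlated best with their own number), and that replicate block called 3 members in PI and 1 in CL, and 1800 and 1868 of all genes. Over all genes, the trimmed-mean test called 1537, 1440, 3, 4 and 0 (PI with CL in WT, in KO, KO with WT in PI, in CL, and the interaction), limma on the deposited values 6459, 6666, 2388, 2311 and 1940, and with the replicate block 6614 and 6759 in WT and KO and 2216 for the interaction. The understated spread of drawn-in values is part of how the limma counts are made. Centring, a filter at 0 log2 CPM and log2(CPM + 0.5) left 5 members in WT and 2 or 3 in KO.

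The alternatives for the 2 other microglia lists and for single genes of the other lists were chosen after seeing the data. Depth limits Tmem119, Olfml3 and Gpr34 most, with as few as 18.8, 15.1 and 17.1 reads in a library.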

Other observations

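The genes that overlap a member in the annotation and could be tested did not pass between PI and CL in either genotype. Cask, which contains Gpr34, changed by -0.04 in WT (adjusted p = 0.681) and 0.02 in KO (adjusted p = 0.819). Within the long gene model of Cx3cr1, Wdr48 changed by -0.04 and -0.06, Gorasp1 by -0.06 and 0.05, and Csrnp1 by 0.24 and 0.18, and these 3 share no exon base with it. P2ry12 shares 9 exon bases with Med12l, and P2ry13 and Gpr34 share none with the genes that contain them.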
